A study of Mus musculus with 48 samples.

Results

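The comparison described here set the frontal cortex of 4 WT mice at postnatal week (PWK) 14 against that of 4 other WT mice at PWK 7, which are 8 of the 48 bulk RNA-sequencing libraries of the series. The members are therefore libraries, chosen by their labels for region, genotype and age, and the changes were read across all genes. All mice were C57BL/6N, and the WT animals were littermates of *Cyfip2*+/- mice, which carry 1 inactivated copy of *Cyfip2* and are labelled HT in the sample records. The WT mice carried no engineered allele and received no treatment. Frontal cortex of *Cyfip2*+/- mice at the same ages (4 and 4 libraries) and hippocampus of WT mice at the same ages (4 and 4 libraries) were used only to read the genes of the WT cortex again. Each library came from a different mouse within a region, so the change with age was between animals and not within them. In bulk tissue, fewer cells of a type and less RNA per cell cannot be told apart. The labels give no sex, litter, dissection day or sequencing run, and where those differed between the 2 ages they cannot be told apart from age.

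The interval runs from the young adult to the adult mouse. Oligodendrocytes, which arise from precursor cells through a short newly formed stage, wrap axons in myelin, and in the cortex they keep being added after sexual maturity. Neurons by then have largely completed the growth of axons and dendrites, while synapses, ion channels and the extracellular nets around some inhibitory neurons are still adjusted.

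Values are normalized counts, in which each library had been scaled to a common depth, and a value of a gene can be compared between libraries but not between genes of different length. Their totals were between 33100000 and 33700000 per library at PWK 7 and between 32200000 and 32800000 at PWK 14. The number of reads behind a library was estimated from the spacing of low values. The estimates were 36200000 to 36800000 at PWK 7 and 28100000 to 31700000 at PWK 14, without overlap. The spacing fitted only 31.88% to 75.25% of the low values used at PWK 7 and 28.16% to 65.5% at PWK 14. The estimates are therefore uncertain, most of all in libraries with a low share. The part of a difference in depth in the changes was not tested. Cortical projection neuron genes were high in every library: the vesicular glutamate transporter gene *Slc17a7* was at 44226 to 47824 at PWK 7 and at 43776 to 46914 at PWK 14, and the upper-layer gene *Cux2* at 4130.4 to 4226 and 4217 to 4802. One library stood apart by the choroid plexus gene *Ttr*, which was at 26614.5 in replicate 1 of PWK 14 and between 28.2 and 235 in the other 3 libraries of that age. *Ttr* was at 34.1 to 669 at PWK 7. Of the 16 genes of the choroid plexus and ependyma list, 9 passed the filter on low values. None of those was called, with 7 above 0 and a median log2 fold change of 0.68. On the first principal component, with 24.0% of the variance, the ages separated, and replicates 4 of PWK 7 and PWK 14 lay nearest to each other.

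Between PWK 7 and PWK 14, 436 of 16878 genes tested fell (2.58%) and 217 rose (1.29%) at an adjusted p below 0.05 by limma. The changes were small: the median log2 fold change was -0.33 among the genes that fell and 0.35 among those that rose, and 29 of the 653 differentially expressed genes (DEGs) changed by more than 1 on the log2 scale. The smallest change that passed was 0.15 upward and -0.14 downward. Values of the 2 ages did not overlap in 414 of the genes that fell and in 210 of those that rose, against 2219 of all genes tested (13.1%). Among the DEGs, 618 were protein-coding, of 14651 protein-coding genes tested. The count rested on single libraries to a large degree. Without replicate 1 of PWK 7, 47 genes fell and 18 rose, without replicate 2, 108 and 41, and without replicate 3, 117 and 35. Without replicates 1, 2 and 3 of PWK 14 in turn, 152, 87 and 232 genes fell and 71, 28 and 98 rose. Without replicate 4 of PWK 7, 533 fell and 356 rose, and without replicate 4 of PWK 14 the numbers were 700 and 312. The balance of the directions moved with the scaling, and with quantile normalization 341 genes fell and 272 rose.

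**Figure D1:**
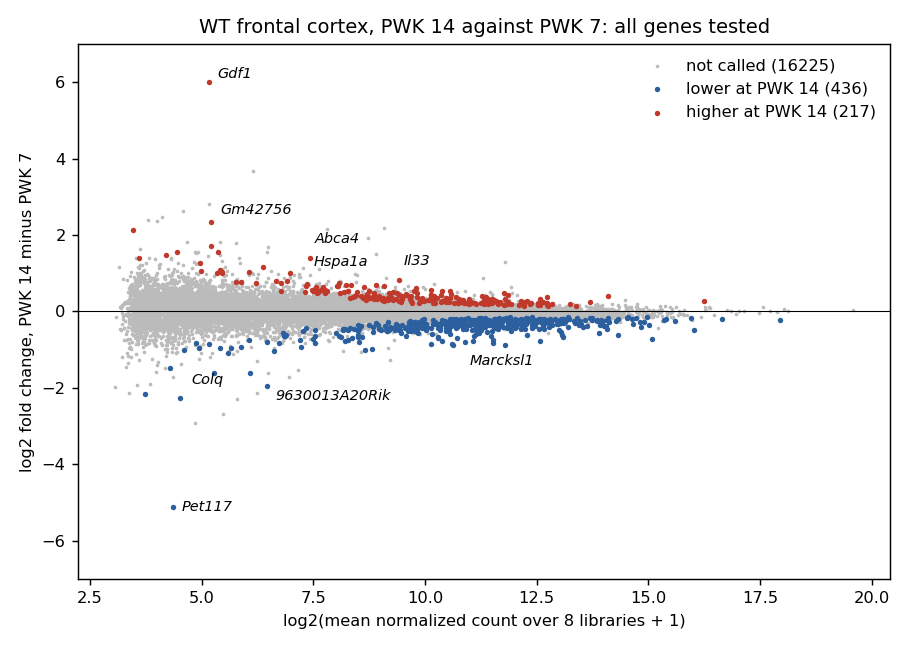
Each point is 1 of 16878 genes in WT frontal cortex, with the mean level over the 8 libraries on the horizontal axis (log2 of the normalized count plus 1) and the log2 fold change, PWK 14 minus PWK 7, on the vertical axis. Blue points (436) are genes lower and red points (217) genes higher at PWK 14 with an adjusted p below 0.05, and most of them lie within 1 unit of 0. The positions of Gdf1 and Pet117, which are listed at 0 in all 4 mice of an age, depend on the added count of 1.

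Among the gene lists read, that of myelin held the largest number of genes that fell. Of 27 genes of the myelin and oligodendrocyte list tested, 13 fell and 1 rose, the median log2 fold change of the list was -0.33, and that of all genes tested was -0.01. *Mbp*, which encodes a major protein of central myelin, was at 81702, 79951, 72984 and 77175 in the mice of PWK 7 and at 57669.6, 66609, 45394 and 53691 in those of PWK 14. Every mouse of PWK 14 lay below every mouse of PWK 7, and the log2 fold change was -0.49 ± 0.09 (SE, n = 4 and 4; adjusted p = 0.0218). The largest falls in the list were those of *Ugt8a*, which encodes the enzyme that makes the myelin lipid galactosylceramide (-0.88 ± 0.12, adjusted p = 0.00508), and of *Cldn11*, the tight junction protein of myelin (-0.88 ± 0.11, adjusted p = 0.00394). *Cldn11* was at 4833, 4266, 4434 and 4747 at PWK 7 and at 2738, 2904, 1899 and 2534 at PWK 14. All 4 values of the older group were again below all 4 of the younger one.

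Further members that fell were structural and enzymatic parts of the sheath. *Mal*, a proteolipid of myelin membranes, fell from 7734 ± 394 to 4547 ± 823, and *Mog*, a glycoprotein of the outer myelin surface, from 1659 ± 137 to 986 ± 212 (SD, n = 4). *Tspan2* (-0.76 ± 0.08), *Mag* (-0.62 ± 0.09), *Cnp* (-0.63 ± 0.10), *Mobp* (-0.63 ± 0.11), *Fa2h* (-0.56 ± 0.13) and *Sirt2* (-0.31 ± 0.06) fell too, with adjusted p between 0.0018 and 0.0368. *Apod*, a lipid carrier of mature oligodendrocytes, astrocytes and perivascular cells, rose from 2662 ± 168 to 3192 ± 167 (log2 fold change 0.26 ± 0.06, adjusted p = 0.0302). Among the 13 members without a call, the log2 fold change was -0.33 for *Pllp*, -0.18 for *Ermn*, -0.18 for *Opalin*, -0.04 for *Aspa* and 0.03 for *Hapln2*, the last 3 of which mark mature oligodendrocytes. Replicate 3 of PWK 14 had the lowest value of its group in 22 of the 27 members. Without it, 13 members fell, whereas without replicate 1 of PWK 7 the number was 6, and in a single model of all 48 libraries it was 7.

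**Figure D2:**
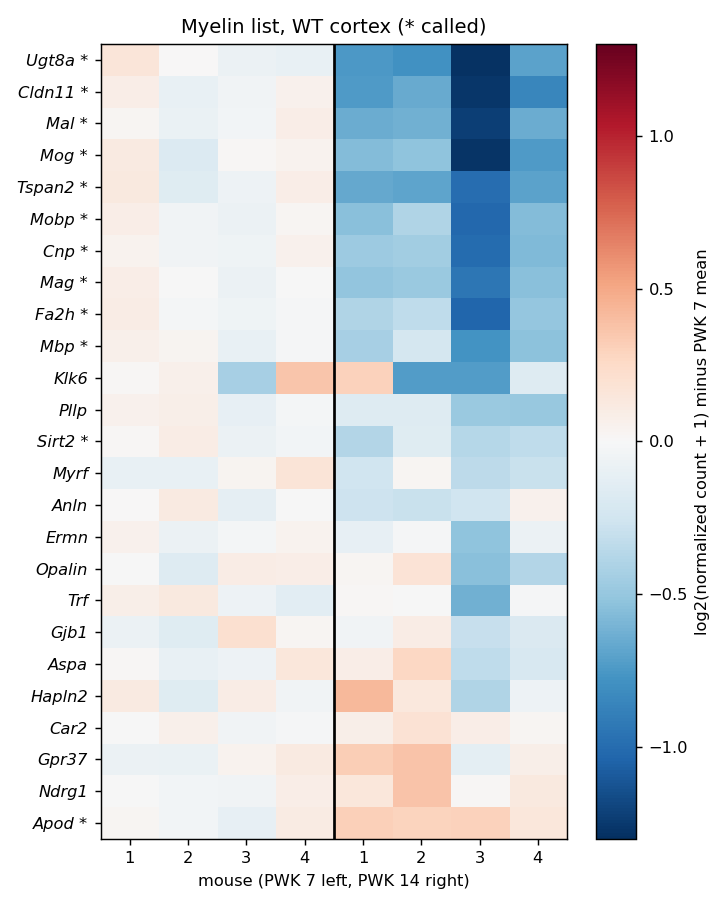
Rows are 25 of the 27 genes of the myelin list and columns the 8 WT cortex libraries, with PWK 7 left of the line and PWK 14 right of it. Colour gives log2 of the normalized count plus 1 minus the PWK 7 mean of the gene, on a scale from -1.3 (blue) to 1.3 (red), and asterisks mark the 12 genes called among them. The upper rows are blue in all 4 mice of PWK 14 and darkest in replicate 3, and the lower rows are near white or red.

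Genes of the stage before myelination fell as well. Of 17 genes of the precursor and newly formed oligodendrocyte list, 3 fell and none rose, with a median of -0.23. *Gpr17*, a receptor found on committed precursors, was at 3116, 2838, 2459.9 and 2532 at PWK 7 and at 1532, 1683, 1693 and 1488 at PWK 14. It had fallen in all mice of the older group to 58.4% of the younger mean (log2 fold change -0.77 ± 0.08, adjusted p = 0.00123). *Enpp6*, a marker of newly formed oligodendrocytes, went from 384 ± 40.4 to 229.6 ± 39.1 (adjusted p = 0.0155), and *Olig1*, a transcription factor of the lineage, from 2654 ± 100.2 to 2050.0 ± 101 (adjusted p = 0.00508). For *Pdgfra*, which marks the precursors themselves, the means were 1905 ± 131 and 1883 ± 91.9 (adjusted p = 0.905), and for *Sox10*, present throughout the lineage, 1047 ± 51.5 and 934 ± 101 (adjusted p = 0.229). Of the genes with the smallest p outside the lists, 3 are strongly expressed by oligodendrocytes. *Gsn*, which encodes the actin-severing protein gelsolin, was at 2759, 2626, 2624 and 2589 at PWK 7 and at 1837, 1751, 1653 and 1597 at PWK 14 (-0.63 ± 0.05, adjusted p = 0.000374). *Nfasc*, the neurofascin gene, whose products anchor the axon initial segment and the glial loops beside nodes, fell by 0.37 ± 0.04 on the log2 scale, and *Sema4d* by 0.40 ± 0.04.

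Among genes not listed at 0 in all mice of an age, the smallest p was that of *Marcksl1*. The gene encodes an actin-binding substrate of protein kinase C that is abundant in growing neurons. It was at 2339, 2565, 2402 and 2341 at PWK 7 and at 1282, 1479, 1428 and 1389 at PWK 14, a fall to 57.8% of the younger mean with no overlap (-0.79 ± 0.06, adjusted p = 0.000103). Its relative *Marcks* fell from 4527 ± 98.4 to 3635 ± 89.8 (-0.32 ± 0.04, adjusted p = 0.00329), and *Sox4*, a transcription factor of immature neurons, from 839 ± 23.9 to 569.9 ± 59.5 (-0.56 ± 0.08, adjusted p = 0.00625). *Marcksl1* and *Sox4* were the members called of the 22 genes of the immature neuron and growth list, whose median was -0.07. *Dcx*, the microtubule protein of migrating young neurons, had a log2 fold change in the other direction, 0.36 ± 0.12 (adjusted p = 0.115). None of 17 cell cycle genes passed by limma, with 6 of them lower and none higher at an unadjusted p below 0.05, a median of -0.25 and, for the proliferation marker *Mki67*, means of 105 ± 21.1 and 64.5 ± 10.1.

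Of 26 genes of the heat shock and unfolded protein list, 6 fell and 1 rose. The genes that fell were, apart from *Dnaja1*, chaperones of the endoplasmic reticulum (ER). *Hspa5* encodes BiP, the central ER chaperone. It was at 10724, 10588, 8960.1 and 7669 at PWK 7 and at 5746, 6197, 6829 and 8269 at PWK 14. The ranges of the 2 ages overlapped, since replicate 4 of PWK 14 was above replicate 4 of PWK 7, and the log2 fold change was -0.49 ± 0.12 (adjusted p = 0.0486). *Dnajb11*, a co-chaperone of BiP, was at 1931, 1901, 1843 and 1662 and then at 1355, 1311, 1452 and 1559, without overlap (-0.37 ± 0.07, adjusted p = 0.019). *Pdia4*, a disulfide isomerase (-0.43 ± 0.10), *Manf* (-0.40 ± 0.10) and *Sdf2l1* (-0.70 ± 0.17) fell with adjusted p between 0.041 and 0.0486. In the 12 ER genes of the list, a subset drawn after their values were seen, the median was -0.29, and all 12 had a negative log2 fold change, the other 7 without a call. *Canx*, the membrane chaperone calnexin, was no member of the list and fell from 11148 ± 668 to 9422 ± 235 (-0.24 ± 0.05, adjusted p = 0.0222). These calls were marginal: none of the 12 was called without replicate 1, 2 or 3 of PWK 7 or replicate 1 or 2 of PWK 14, 1 without replicate 3 of PWK 14, and 8 and 7 without replicate 4 of PWK 7 and of PWK 14. With median-of-ratios rescaling 2 of them were called, and with quantile normalization 3.

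Many ER chaperone genes carry in their promoters the ER stress element, a known pair of motifs, CCAAT and CCACG, spaced 9 bases apart. Promoters from RefSeq (GRCm38.p6), each 250 bases before to 50 bases after the start of a gene, were searched for these letters on both strands. The element was present in 0.119% of 32851 promoters and, counted by gene, in 19 of 12163 genes tested (0.156%). By gene, it was present in 5 of the 10 ER genes with a promoter in the table (*Calr*, *Creld2*, *Hsp90b1*, *Hspa5* and *Pdia6*). It was present in 2 of 311 genes that fell (*Hspa5* and *Canx*) and in none of 169 that rose. The last 200 bases before the start are shown for 1 gene called and for 2 genes of the same kind without a call, with the element in capitals and the 9 bases between in lower case, 5′ to 3′ in the direction of the gene.
Hspa5 (chr2:34771890-34772089, plus strand): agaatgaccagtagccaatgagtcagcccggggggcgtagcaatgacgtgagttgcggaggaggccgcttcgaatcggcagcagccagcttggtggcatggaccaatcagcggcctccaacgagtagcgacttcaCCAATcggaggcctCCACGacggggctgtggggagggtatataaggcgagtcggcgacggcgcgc
Calr (chr8:84846932-84847131, minus strand): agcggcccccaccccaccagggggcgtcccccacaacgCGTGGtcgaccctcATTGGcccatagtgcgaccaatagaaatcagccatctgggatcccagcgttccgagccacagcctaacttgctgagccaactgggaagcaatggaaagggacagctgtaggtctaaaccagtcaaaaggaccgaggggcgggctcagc
Pdia6 (chr12:17266389-17266588, plus strand): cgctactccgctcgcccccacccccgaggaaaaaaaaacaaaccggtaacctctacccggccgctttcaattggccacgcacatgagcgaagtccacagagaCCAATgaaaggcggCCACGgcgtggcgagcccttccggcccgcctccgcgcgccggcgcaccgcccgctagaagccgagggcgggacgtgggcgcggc
In *Hspa5* and *Pdia6* the element reads in the direction of the gene, and in *Calr* on the opposite strand. The log2 fold change was -0.28 ± 0.07 for *Calr* (adjusted p = 0.0566) and -0.26 ± 0.09 for *Pdia6* (adjusted p = 0.124), beside -0.49 for *Hspa5*. A match of letters is a description and not a site in use.

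Of the other 14 members of the heat shock and unfolded protein list, 7 had a log2 fold change below 0 and 7 above it, and 1 fell and 1 rose. *Hspa1a*, the inducible HSP70 gene, was at 374, 336, 381 and 379 at PWK 7 and at 508, 619.7, 628 and 615 at PWK 14, and rose without overlap (0.68 ± 0.09, adjusted p = 0.00396). Its neighbour *Hspa1b* shares 63.8% of the 31-base words of the *Hspa1a* transcripts, so that reads cannot be assigned to a single copy with certainty, and its own log2 fold change was 0.65 ± 0.16 (adjusted p = 0.0502). *Hsf4*, a heat shock transcription factor gene that was no member of the list, rose from 312 ± 11.2 to 485 ± 25.3 (0.63 ± 0.07, adjusted p = 0.00284). *Dnaja1*, a cytosolic co-chaperone, fell from 9867 ± 402 to 8212 ± 376 (-0.27 ± 0.04, adjusted p = 0.0153).

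Genes of ribosomal proteins, a group assembled after the values were seen, moved upward by small steps. Of 78 tested, 26 rose and none fell, 73 had a log2 fold change above 0, and the median was 0.16. *Rpl32* was at 2514, 2554, 2501 and 2638 at PWK 7 and at 2749, 3009, 2932 and 3011 at PWK 14 (0.20 ± 0.04, adjusted p = 0.0357). The largest rises that passed were those of *Rpl13* (0.25 ± 0.04), *Rpl31* (0.24 ± 0.05) and *Rpl14* (0.24 ± 0.04), and the lowest value in the group was -0.28 for *Rps27* (adjusted p = 0.848). The summed level of the 78 genes was 288582 to 298865 at PWK 7 and 317114 to 338816 at PWK 14. With median-of-ratios rescaling 29 rose and with quantile normalization 40, none fell under either, and the number was 0 without replicate 1 of PWK 7, 2 without replicate 2 of PWK 14, 4 and 6 without replicates 3 and 2 of PWK 7, and 13 without either replicate 1 or replicate 3 of PWK 14. Many of these genes have processed pseudogenes of near-identical sequence: of the words of *Rpl36*, 94.0% occur in transcripts of other genes.

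Of 24 glutamate receptor genes 2 fell, both of them subunits of the NMDA receptor, and none rose (median -0.03). *Grin2a* was at 8731, 7967, 8102 and 7024 at PWK 7 and at 6042, 5902, 5584 and 6580.0 at PWK 14, without overlap (-0.40 ± 0.07, adjusted p = 0.0155). *Grin2b*, whose share of the receptor is high in early life, went from 19326 ± 1449.8 to 15999.6 ± 188 (-0.27 ± 0.05, adjusted p = 0.0212). Without replicate 1 of PWK 7 or replicate 2 of PWK 14, 0 of the 24 genes were called, and 1 fell without replicates 2 or 3 of PWK 7 or replicate 1 of PWK 14. None of 14 GABA receptor genes passed by limma, with 6 lower and none higher at an unadjusted p below 0.05 and a median of -0.08. Of 28 voltage-gated channel genes 3 fell and none rose, with a median of -0.11. Among those that fell were *Scn2b*, which encodes a sodium channel subunit (-0.23 ± 0.04, adjusted p = 0.0185), and *Kcnq3*, a subunit of the M-current channel (-0.29 ± 0.07, adjusted p = 0.0398). The number of channel genes that fell was 0 without replicate 1 or 3 of PWK 7 or replicate 2 of PWK 14, 1 without replicate 2 of PWK 7 or replicates 1 or 3 of PWK 14, and 5 without replicate 4 of PWK 14.

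Of 28 immediate early and activity-linked genes, 2 fell and none rose, although 20 had a log2 fold change above 0 (median 0.15). *Homer1*, which encodes a scaffold of the postsynaptic density and has an activity-induced short form, was at 10810.0, 11471, 10709.9 and 9274 at PWK 7 and at 5249, 5861, 7342 and 8506 at PWK 14 (-0.67 ± 0.13, adjusted p = 0.0218). All mice of PWK 14 were below all of PWK 7. *Dusp6*, a phosphatase of the ERK pathway, fell with an adjusted p of 0.0462 (-0.35 ± 0.08), and for the neurotrophin gene *Bdnf* the log2 fold change was -0.60 ± 0.15 (adjusted p = 0.0526). For *Fos* it was 0.52 ± 0.22 (adjusted p = 0.202) and for *Arc* 0.14 ± 0.22 (adjusted p = 0.752). Without replicate 4 of PWK 7, 7 genes of the list rose and 3 fell, and 1 rose and 3 fell without replicate 4 of PWK 14. Only 1 fell without replicate 3 of PWK 7 or replicate 1 of PWK 14, and 0 were called without replicates 1 or 2 of PWK 7 or replicate 2 of PWK 14. *Pcsk1*, a convertase that processes neuropeptide precursors, fell from 2818 ± 154 to 1911 ± 186 (-0.56 ± 0.07, adjusted p = 0.00329). In *Cyfip2*+/- cortex over the same ages, 7 genes of the immediate early list rose and 2 fell (median 0.40). In WT hippocampus 1 fell and none rose (median 0.41).

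Of 21 genes of excitatory neurons and their layers, 2 fell and 1 rose (median -0.09). *Etv1*, a transcription factor of deep-layer neurons, fell from 2866 ± 140.0 to 2244 ± 159.9 (-0.35 ± 0.06, adjusted p = 0.013), *Neurod6* from 3413 ± 420.4 to 2407 ± 269 (-0.50 ± 0.10, adjusted p = 0.0218), and *Otof*, a marker of upper-layer neurons, rose from 1094 ± 109 to 1586 ± 314 (0.52 ± 0.12, adjusted p = 0.0397). No gene of that list was called without replicate 1 of PWK 7, 1 fell without replicates 2 or 3 of PWK 7 or replicates 1 or 2 of PWK 14, and 6 fell without replicate 4 of PWK 14. The rise of *Otof* was lost without replicates 1, 2 or 3 of PWK 7 or replicates 2 or 3 of PWK 14. None of 23 inhibitory neuron genes changed by limma, with 6 lower and 2 higher at an unadjusted p below 0.05. Of 18 neuropeptide genes *Tac2*, the neurokinin B gene, rose (0.57 ± 0.11, adjusted p = 0.0249), and of 13 perineuronal net genes *Hapln1*, which links hyaluronan to proteoglycans, fell (-0.39 ± 0.07, adjusted p = 0.0218). *Pde10a*, a phosphodiesterase most abundant in the striatum, was at 3778, 3844, 3598 and 3737 at PWK 7 and at 1889, 2092, 2034 and 2486 at PWK 14 (-0.82 ± 0.07, adjusted p = 0.000473). It was the only call among 13 striatal markers, whose summed level was 10615 to 14871 at PWK 7 and 8483 to 12796 at PWK 14. The dopamine receptor gene *Drd2* ranged from 52.4 to 244 and from 27.4 to 192, with an adjusted p of 0.512, and the part of adjoining striatum in the fall of *Pde10a* was not tested. Of 8 genes of the olfactory bulb and other regions, the vesicular glutamate transporter gene *Slc17a6* fell (-0.39 ± 0.08, adjusted p = 0.0291). Replicate 3 of PWK 14 stood apart in that list, with *Cdhr1* at 461 against 81.6 to 123 in the others of its age. *Th* was at 144 there against 37.9 to 47.8. The summed level of the list was 1448 to 1706 at PWK 7 and 1382 to 2256 at PWK 14. Replicate 3 also had the lowest value of its age in 22 of 27 myelin genes. The part of adjoining olfactory tissue in its values was not tested.

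Axon guidance genes moved in both directions. Of 34 genes of adhesion and axon guidance, 6 fell and 3 rose (median -0.13). *Sema3a*, a secreted repellent, fell from 800.1 ± 64.4 to 575 ± 57.4 (-0.48 ± 0.09, adjusted p = 0.0185), together with *Sema6a* (-0.36 ± 0.07), *Slit3* (-0.33 ± 0.07), *Sema3e* (-0.51 ± 0.11), the receptor *Epha4* (-0.25 ± 0.06) and the semaphorin receptor *Nrp1* (-0.50 ± 0.12). The other neuropilin, *Nrp2*, rose (0.48 ± 0.11), as did the receptor gene *Plxna3* (0.57 ± 0.11) and the adhesion molecule gene *L1cam* (0.22 ± 0.04, adjusted p = 0.0218). *L1cam* was at 5406, 5606, 5486 and 5892 at PWK 7 and at 6361, 6437, 6806 and 6414 at PWK 14. *Plxna3* overlapped between the ages, because replicate 4 of PWK 7 was at 1163, close to replicate 4 of PWK 14. No gene of the list was called without replicate 1 or 2 of PWK 7, and 1 fell and none rose without replicate 3 of PWK 7 or replicate 2 of PWK 14. Without replicates 1 and 3 of PWK 14 in turn, 3 and 4 fell and 2 and 1 rose. Of 22 collagen and basement membrane genes none passed by limma, with 4 higher and 3 lower at an unadjusted p below 0.05. Outside that list, *Col6a5*, a collagen VI chain, went from 14.2 ± 2.31 to 57.8 ± 42.2 and rose (1.72 ± 0.40, adjusted p = 0.0398).

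**Figure D3:**
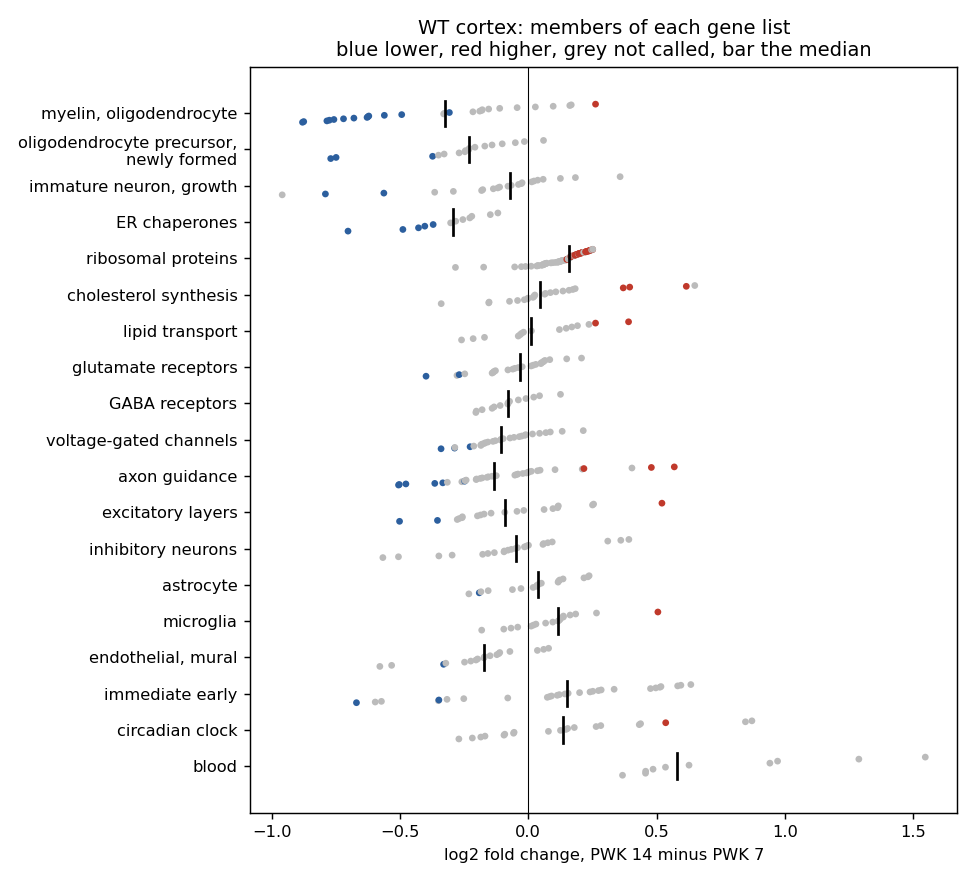
Each point is a gene of a list named at the left, placed by its log2 fold change in WT cortex, PWK 14 minus PWK 7. Blue points fell and red points rose at an adjusted p below 0.05, grey points were not called, and the black bar is the median of the list. The myelin list has its median at -0.33 and 13 blue points, and the ribosomal protein list has its median at 0.16 and 26 red points.

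Of 24 cholesterol synthesis genes 3 rose and none fell (median 0.04). *Lss*, the lanosterol synthase gene, was at 1373, 1489, 1401 and 1520.0 at PWK 7 and at 1753, 2101, 1673 and 1972 at PWK 14, without overlap (0.37 ± 0.07, adjusted p = 0.0237). *Insig1*, which encodes a sterol sensor of the ER, rose as well (0.40 ± 0.09, adjusted p = 0.0354). In this list 1 gene rose without replicates 1, 2 or 3 of PWK 7 or replicate 2 of PWK 14, and 4 rose and 1 fell without replicate 4 of PWK 7. For *Hmgcs1*, an enzyme near the start of the pathway, the log2 fold change was -0.15 ± 0.06 (adjusted p = 0.158). In the lipid transport list of 15 genes, *Ptgds* and *Apod* rose. *Ptgds*, the prostaglandin D2 synthase gene, which is expressed by meninges, choroid plexus and oligodendrocytes, was at 15033, 16096, 14729.6 and 14372 at PWK 7 and at 20766, 19666, 18739 and 19786 at PWK 14 (0.39 ± 0.05, adjusted p = 0.00293). The meningeal transporter gene *Slc22a6* rose as well, from 245 ± 20.9 to 401 ± 47.9 (0.70 ± 0.10, adjusted p = 0.00849), the only call among 13 genes of meningeal fibroblasts, of which 11 had a log2 fold change above 0 (median 0.21). The summed level of that list was 4646 to 5722 at PWK 7 and 5096 to 6911 at PWK 14, and the part of adhering meninges in these rises was not tested.

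*Il33*, an alarmin that oligodendrocytes and astrocytes keep in their nuclei, was at 441, 533, 426 and 575 at PWK 7 and at 882, 938, 793 and 866 at PWK 14. It rose in every mouse above the younger range (0.83 ± 0.10, adjusted p = 0.00329). *Ass1*, the argininosuccinate synthase gene, rose from 419 ± 44.9 to 665 ± 15.7 (0.67 ± 0.08, adjusted p = 0.00329), although 43.1% of its 31-base words also occur in the pseudogene *Gm5424*. Of 19 microglial genes *Trem2*, a receptor for lipids and cell debris, rose (0.51 ± 0.11, adjusted p = 0.0362), whereas *Tmem119* (-0.04), *P2ry12* (0.01) and *Cx3cr1* (0.03), which define microglia, were not called. None of 24 complement, MHC and interferon genes passed by limma, with 6 higher and none lower at an unadjusted p below 0.05. Of 18 astrocyte genes *Slc1a2*, the main glutamate transporter gene, fell from 109537 ± 5906 to 95887 ± 3562 (-0.19 ± 0.05, adjusted p = 0.0495). Of 18 endothelial and mural genes the pericyte gene *Rgs5* fell (-0.33 ± 0.07, adjusted p = 0.0291), and the log2 fold change of the endothelial *Cldn5* was -0.58 ± 0.16 (adjusted p = 0.0687). All 10 blood genes tested had a log2 fold change above 0 and none passed by limma, 9 of them at an unadjusted p below 0.05. Beta-globin *Hbb-bs* was at 3591, 3609, 3141 and 2691 at PWK 7 and at 5381, 5413, 4386 and 3305 at PWK 14.

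Of 20 clock genes the repressor gene *Bhlhe41* rose, from 707 ± 126 to 1017 ± 85.6 (0.54 ± 0.11, adjusted p = 0.0258), and the value for *Nr1d1* was 0.28 ± 0.07 (adjusted p = 0.052). Of 17 genes that respond to glucocorticoids the mineralocorticoid receptor gene *Nr3c2* rose (0.26 ± 0.05, adjusted p = 0.029), and 7 were higher and 3 lower at an unadjusted p below 0.05. Of these, *Sgk1*, a kinase gene, was at 1540.4, 1381, 1265 and 3268 at PWK 7 and at 2860.3 to 3394 at PWK 14 (0.87 ± 0.23, adjusted p = 0.0603), and *Ddit4*, a stress-induced inhibitor of mTOR signalling, at 760.0, 721, 711 and 1474 and then at 1255 to 1645 (0.73 ± 0.20, adjusted p = 0.0636). In both, replicate 4 of PWK 7 stood apart from the other 3 mice and within the range of PWK 14. The spread at PWK 7 was wide elsewhere too. *Sgk1* ranged from 1207 to 3621 in *Cyfip2*+/- cortex (mean 1890) and from 1561 to 3746 in WT hippocampus (mean 2151). *Ddit4* ranged from 635 to 1709 (mean 986) and from 1432 to 2043 (mean 1613), in the same order. Of 15 genes of the mitochondrial genome, *mt-Nd6*, the only protein-coding gene on its strand, fell (-0.49 ± 0.09, adjusted p = 0.0221). *Cyfip2* itself, at chr11:46193850-46312859, was at 32668, 30231, 32459.5 and 32714 at PWK 7 and at 33310.4, 34224, 30472 and 33587 at PWK 14, a log2 fold change of 0.04 ± 0.05 (adjusted p = 0.664). Of 13 genes of the WAVE complex, the actin regulator of which CYFIP2 is a part, *Wasf3* fell (-0.20 ± 0.04, adjusted p = 0.0381).

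Other genes named for the smallest p or the largest change belong to no list. *9630013A20Rik*, a long non-coding RNA gene at chr14:84458639-84476424, was at 150.2, 152, 129 and 122 at PWK 7 and at 30.7, 29.6, 37.1 and 42.9 at PWK 14. It fell to 25.3% of the younger mean (-1.96 ± 0.17, adjusted p = 0.000408). *Colq*, which encodes the collagen tail that anchors acetylcholinesterase, was at 123, 101, 92.2 and 85.7 and then at 29.2, 31.5, 32.9 and 35.2 (-1.60 ± 0.17, adjusted p = 0.00138). *Trp53inp2*, an autophagy regulator, fell from 7503 ± 408 to 5482 ± 205 (-0.45 ± 0.05, adjusted p = 0.00138). *Kcp* (-1.04 ± 0.23), *Gm37111* (-1.09 ± 0.22) and *Gm49486* (-1.61 ± 0.36) had the largest falls among genes with a mean of at least 50 in an age group, besides *9630013A20Rik* and *Colq*.

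Upward, *Wnt10b*, a WNT ligand, went from 50.4 ± 7.99 to 114 ± 13.8 (1.17 ± 0.16, adjusted p = 0.00625). *Abca4*, a retinoid transporter, went from 93.3 ± 23.7 to 251 ± 82.3 (1.40 ± 0.22, adjusted p = 0.0123), and *Inmt*, an amine methyltransferase, from 19.3 ± 5.84 to 60.8 ± 25.1 (1.56 ± 0.31, adjusted p = 0.025). *Celsr3*, a planar polarity cadherin of growing axons, rose (0.33 ± 0.05, adjusted p = 0.00757), and so did *Ssh3*, a phosphatase that acts on the actin regulator cofilin (0.33 ± 0.05, adjusted p = 0.0069). *Snhg14*, the long host transcript of the Prader-Willi and Angelman region, was at 5783, 5854, 5867 and 6186 at PWK 7 and at 7256, 8184, 7506 and 7671 at PWK 14 (0.37 ± 0.04, adjusted p = 0.00329). The unnamed gene *Gm42756* was at 9.17, 8.23, 16.2 and 12.6 and then at 61.0, 65.7, 56.0 and 60.0 (adjusted p = 0.00138).

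A pair of genes were listed at 0 in all mice of an age, and both share their whole sequence with a neighbour. *Gdf1*, at chr8:70329817-70331587, was listed at 0 in all 4 mice of PWK 7 and was at 79.5, 100.4, 28.4 and 70.1 at PWK 14. It passed the filter on low values only through the mice of PWK 14, and its zeros had no spread, so its p is not given. All of its 31-base words also occur in transcripts of *Cers1*, at chr8:70315775-70331592, which was at 2946 to 3121 at PWK 7 and at 2849 to 2952 at PWK 14 (adjusted p = 0.326). *Pet117*, chosen after its values were seen, was at 14.7, 44.9, 67.3 and 28.7 at PWK 7 and listed at 0 in all 4 mice of PWK 14, and all of its words occur in transcripts of *Kat14*, which was at 1066 to 1157 and 973 to 1238. No fold change is given for either gene. Between these ages of WT cortex, the zeros of *Gdf1* stood in the libraries with the higher estimated depth. Those of *Pet117* stood in the libraries with the lower one. The part of depth in the zeros was not tested. *Gdf1* was listed at 0 within other groups too. It ranged from 0 to 160 in WT cortex at PWK 1. In *Cyfip2*+/- cortex it ranged from 0 to 123 at PWK 1, from 0 to 117 at PWK 7 and from 130 to 254 at PWK 14. In WT hippocampus the range was 0 to 106 at PWK 7 and 0 to 293 at PWK 14.

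The levels at PWK 1, from 4 further WT mice, are given beside these values without a test, since both comparisons would use the same mice of PWK 7. *Mal* was at 265 to 767 at PWK 1, at 7296.5 to 8212 at PWK 7 and at 3314 to 4999 at PWK 14. *Cldn11*, *Mag*, *Mobp* and *Mbp* had the same order of their 3 means, with the lowest at PWK 1 and the highest at PWK 7. *Gpr17* had means of 6236, 2736 and 1599, and *Marcksl1* of 19913, 2412 and 1394, in falling order. *Sox4*, *Marcks* and *Trp53inp2* followed the same order as *Marcksl1*. *Homer1* had means of 4146, 10566 and 6739, and *Pcsk1* and *Grin2a* likewise had their highest mean at PWK 7. *Il33* had means of 169, 494 and 869.8, and *Ptgds* of 8086, 15058 and 19739, which put PWK 14 highest. *L1cam* and *Rpl32* had their lowest mean at PWK 7.

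**Figure D4:**
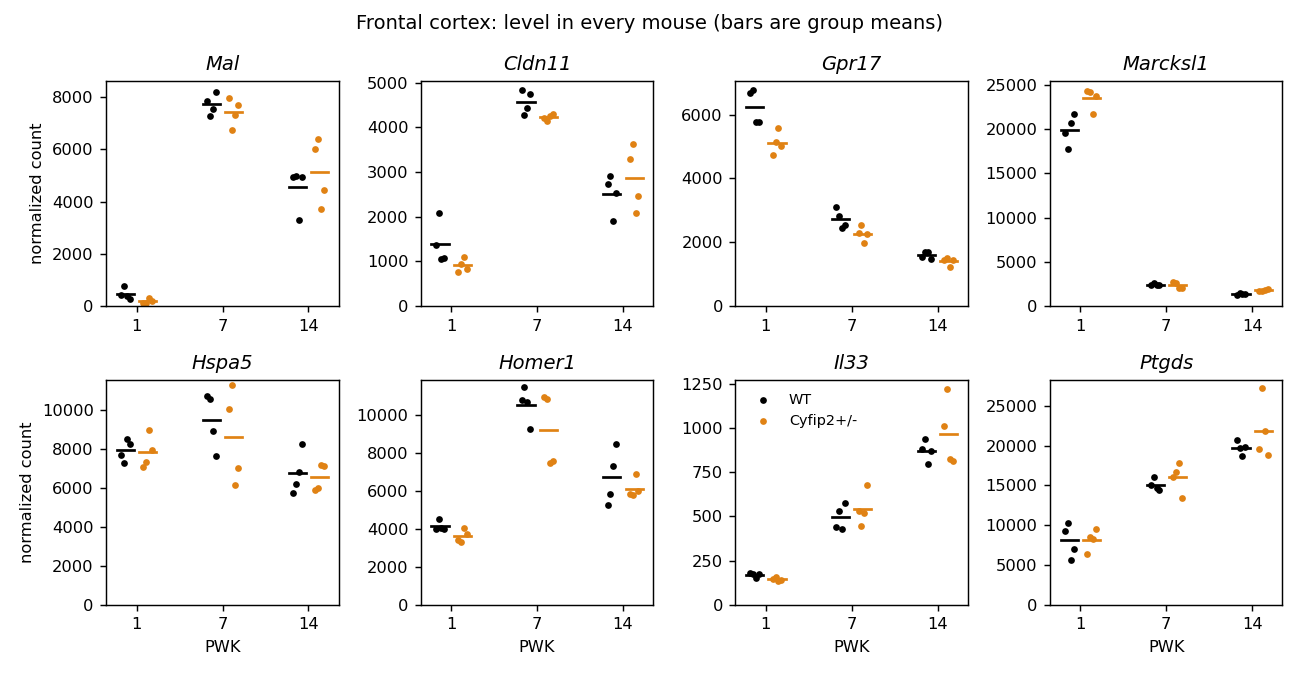
Each panel shows the normalized count of a gene in the frontal cortex of every mouse at PWK 1, 7 and 14, with WT mice in black, Cyfip2+/- mice in orange, and a bar at each group mean. The vertical axes start at 0. In WT mice the means of Mal, Cldn11, Hspa5 and Homer1 are highest at PWK 7, while single values of Hspa5 overlap between the ages. Gpr17 and Marcksl1 have their lowest and Il33 and Ptgds their highest values at PWK 14.

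Whether the genes of the later interval had also changed earlier was read in *Cyfip2*+/- cortex, whose mice are not among those of the WT comparison. There, 5284 genes rose (31.3%) and 5501 fell (32.6%) from PWK 1 to PWK 7, of 16871 tested. Of the 435 genes that fell in WT cortex from PWK 7 to PWK 14 and were tested there, 169 had risen and 182 had fallen over the earlier interval. Of 211 genes that rose in WT cortex, 91 had risen and 67 had fallen.

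The change from PWK 7 to PWK 14 was read again in the cortex of *Cyfip2*+/- mice, which are 8 separate animals of the same ages. In those mice 508 of 16914 genes fell (3.0%) and 315 rose (1.86%). Of the 435 genes that fell in WT cortex and were tested in both, 432 had a negative log2 fold change in *Cyfip2*+/- cortex and 213 fell there. Of the 217 that rose, 212 had a positive one and 82 rose there, and no gene passed in opposite directions. The share with the same direction among all 16679 genes tested in both was 72.9%. Median log2 fold changes were -0.27 and 0.27 in *Cyfip2*+/- cortex for the genes that fell and rose in WT cortex, where they were -0.33 and 0.35. *Nfasc* (-0.41), *Trp53inp2* (-0.46), *Gpr17* (-0.68) and *Ass1* (0.65) were among the genes called in both, with adjusted p between 0.0023 and 0.00394 in *Cyfip2*+/- cortex. Of the 27 myelin genes 5 fell there, *Tspan2*, *Cldn11*, *Ugt8a*, *Mal* and *Sirt2*, with a median of -0.09 over the list. Of the 78 ribosomal protein genes 23 rose and none fell. Of the 12 genes of the ER subset 1 fell there and none rose, with a median of -0.22. *Pde10a* (-0.27, adjusted p = 0.462) and *mt-Nd6* (-0.06, adjusted p = 0.804) were not called there. A test of the difference in age change between the genotypes called 0 of 17420 genes (0.0%) by limma, with 619 at an unadjusted p below 0.05, so no gene's change in WT cortex was shown to differ from that in *Cyfip2*+/- cortex. The genotypes were of the same ages, so a difference in handling between the ages, if there was one, could be shared by them and cannot be told apart from age here.

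In the hippocampus of WT mice the same interval gave fewer calls, with 72 of 16922 genes that fell (0.425%) and 12 that rose (0.0709%). The labels do not say whether cortex and hippocampus came from the same mice, so this may not be a reading in other animals. Of the 434 genes that fell in WT cortex and were tested in both regions, 353 had a negative log2 fold change in hippocampus and 39 fell there, and of 213 that rose, 166 had a positive one, 1 rose and 1 fell. The share with the same direction over all 16373 genes tested in both was 60.2%. Myelin genes were again among those that fell: 13 of the 27 fell in hippocampus, with a median of -0.28, and *Cldn11* (-0.92), *Ugt8a* (-0.94) and *Mal* (-0.84) passed there with adjusted p between 0.000397 and 0.000665. *Gpr17* (-0.68) and *Il33* (0.78) passed in both regions. None of the 26 heat shock and unfolded protein genes and none of the 78 ribosomal protein genes was called in hippocampus by limma. The median there was -0.24 over the ER subset and 0.07 over the ribosomal protein genes, beside -0.29 and 0.16 in WT cortex.

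The difference in age change between the regions of WT mice was called for 13 of 17643 genes (0.0737%). *Marcksl1* fell more in cortex than in hippocampus, where its log2 fold change was -0.24 (difference -0.56 ± 0.09, adjusted p = 0.0223). *Pde10a* did too (difference -0.57 ± 0.10, adjusted p = 0.0373). *Snhg14* rose in cortex and fell in hippocampus (-0.66, difference 1.03 ± 0.14, adjusted p = 0.0122). The genes *Lsm11*, *R3hdm2*, *Atxn1*, *Slc24a3* and *Kcnv1* also fell in cortex, and their change in hippocampus was between 0.04 and 0.23 without a call. Where the same label in both regions was taken to mark the same mouse and the mouse was a block, 2 of the 13 differences passed, those of *Snhg14* (adjusted p = 0.0149) and *Marcksl1* (adjusted p = 0.0495), and that of *Pde10a* did not (adjusted p = 0.0793).

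**Figure D5:**
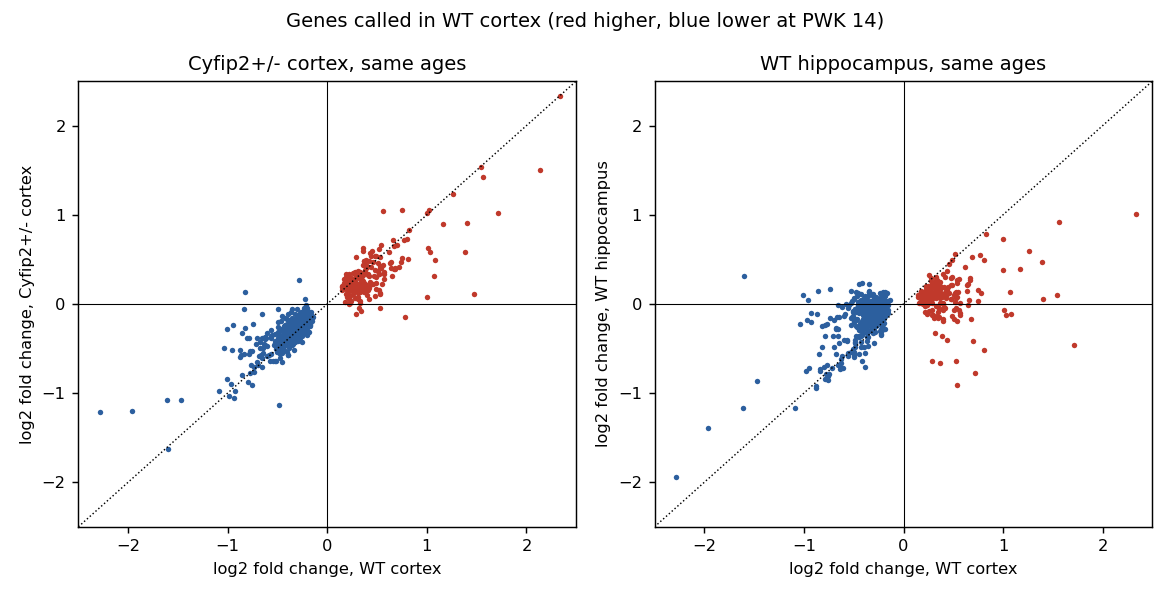
Points are the genes called in WT cortex, red where higher and blue where lower at PWK 14, with the log2 fold change in WT cortex on the horizontal axis and that over the same ages in Cyfip2+/- cortex (left) or WT hippocampus (right) on the vertical axis, and the dotted line marks equal values. Gdf1 and Pet117 lie outside the axes, which end at 2.5. In Cyfip2+/- cortex 432 of 435 blue points and 212 of 217 red points are on the same side of 0 as in WT cortex, and in hippocampus 353 of 434 and 166 of 213.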

How the data were processed

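Bulk RNA sequencing of frontal cortex was read in 4 WT mice at PWK 7 and 4 at PWK 14. Per the labels and the methods of the study, the authors quantified paired reads with Salmon on GRCm38 and made gene counts that they normalized with DESeq2 (the labels name Salmon 0.11.2, R 3.6.0 and DESeq2 1.19.11). The deposited values are thus a normalized signal on a linear scale. They are not whole numbers, whole reads were not recovered, and a test of counts was not run, so depth per library is an estimate from the spacing of values up to 30. The study names a total RNA kit and the labels the mRNA kit of the same maker. Gene names and coordinates are from GENCODE vM21 (GRCm38), which matched 18414 of 18428 identifiers.

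Tested were genes that reached 10 in 4 or more of the libraries compared. The test was limma 3.58.1 in R 4.3.3, with its moderated variances allowed to follow the mean level, and values entered as log2 after 1 had been added, which understates the change of low genes. P-values were adjusted over all genes tested by the method of Benjamini and Hochberg. Each comparison used its own libraries, and differences in age change were contrasts of 4 groups. Replicates are different mice, and no test was made over cells or reads. The steps were tested on simulated data. Shared sequence was measured as the share of 31-base words of a gene's transcripts, on the sense strand, found in transcripts of other genes.

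Gene lists, members and named genes were chosen with earlier results of these data known. Named were *Cyfip2*, up to 12 DEGs per direction with the smallest p and 5 with the largest change among those with a mean of at least 50 at either age, and up to 4 members of each list with the smallest p, and genes outside this rule were added as examples or markers after their values were seen. The ER subset and the ribosomal protein list were set after values were seen. The values were also rescaled by medians of ratios or to equal quantiles, and the filter was dropped or raised to 50 in all libraries. Added counts of 0.1 and 10, robust variances, library weights, 1 model for all 48 libraries, a block for the replicate number and the omission of each library were the other alternatives. The mouse as a block between regions was added after the data were seen. Some genes are counted in their lists and are not reported here by name.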

Additional observations from a re-analysis of the deposited data

Results flagged for a closer look

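At each age, 123 of the genes with values above and the library totals gave 250 groups of 4 mice. Of these groups, 20 held a mouse far from the other 3 by Dixon's criterion, which flags about 1 group in 20 by chance. *Cdhr1* and *Th* were not among the genes searched. The total normalized count of replicate 1 of PWK 7 was 33700000, against 33100000 to 33200000 in the other 3 mice.

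*Ttr* was at 26614.5 in replicate 1 of PWK 14 and between 28.2 and 235 in the other mice of that age. *Rps27* was at 519 in replicate 3 of PWK 14 and between 40.3 and 57.7 in the others. In the same replicate 3, the myelin genes *Mag* (3125 against 4109 to 4300), *Mal* (3314 against 4928 to 4999) and *Tspan2* (1846 against 2253 to 2303) were below the rest of the group.

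*Hspa1a* was at 508 in replicate 1 of PWK 14 (615 to 628 in the others) and at 336 in replicate 2 of PWK 7 (374 to 381), and *Hspa1b* was at 403 in replicate 1 of PWK 14 (654 to 703). In replicate 2 of PWK 14, *Bhlhe41* was at 1145 (966 to 985), *Rgs5* at 2362 (2723 to 2772), *Sema3e* at 536 (723 to 736) and *Slit3* at 991 (891 to 901). In replicate 4 of PWK 14, *Apod* was at 2942 (3255 to 3295) and *Hapln1* at 652 (566 to 579). At PWK 7, *Cyfip2* was at 30231 in replicate 2 (32460 to 32714), *Ssh3* at 1668 in replicate 3 (1811 to 1833) and *Plxna3* at 1163 (794 to 840), *Sgk1* at 3268 (1265 to 1540.4) and *Ddit4* at 1474 (711 to 760.0) in replicate 4.

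The age change of 8 genes named above differed between WT cortex and WT hippocampus by the test of the difference itself. The difference, cortex minus hippocampus on the log2 scale, was 1.03 for *Snhg14* and -0.56 for *Marcksl1*, which also passed with the mouse as a block. It was -1.01 for *Lsm11*, -0.65 for *Kcnv1*, -0.57 for *Pde10a*, -0.48 for *Slc24a3*, -0.47 for *Atxn1* and -0.46 for *R3hdm2*, and with the mouse as a block these 6 did not pass, with adjusted p between 0.0537 and 0.0826.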

How the results depend on the processing

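Scaling, filters, pseudocounts and robust variances kept each of the 6 numbers of calls within 1.5 times. Array weights gave 331 genes that rose in WT cortex and 31 with unequal change between regions. A single model of all 48 libraries gave 443 that rose and 836 that fell in WT cortex, 1537 in *Cyfip2*+/- cortex, 811 in WT hippocampus, 85 with unequal change between regions and 1 between genotypes. With the replicate number as a block (replicate block), the numbers were 96, 223, 173, 11 and 5, in that order without the genotypes, and with the mouse as a block between regions 2. Replicate numbers did not pair the mice of the 2 ages, whose deviations correlated between -0.05 and 0.02 for equal numbers. Leaving out 1 library gave 18 to 356 genes that rose and 47 to 700 that fell in WT cortex, 106 to 1041 in *Cyfip2*+/- cortex, 16 to 111 in WT hippocampus, 0 to 1 with unequal change between genotypes and 3 to 39 between regions. Of 67 called genes taken by the rule for named genes, 28 were called in the same direction under every alternative in which they were tested, and none reversed.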
